A study of Homo sapiens with 12 samples.

Results

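The 51 genes described here encode collagens, laminins and other matrix proteins together with the enzymes and the chaperone that prepare collagen in the cell. They were taken by gene symbol from the 62702 genes of a table of RNA counts. For description they fall into 6 lists by role: 14 basement membrane genes, 13 interstitial collagens, 8 adhesive and matricellular glycoproteins, 9 genes of microfibrils and elastic fibres, 3 matrix proteoglycans, and 4 collagen hydroxylase and chaperone genes. RNA came from 786-O, a human clear cell renal cell carcinoma line. The 12 libraries were made by BRB-seq, which tags polyadenylated RNA with a sample barcode and sequences its 3′ ends. All 4 groups of 3 libraries received doxycycline for 72 hours. One line, shHIF2A, carried inducible shRNA against HIF2A, the protein of EPAS1. The shJUNs line carried shRNA against JUN, JUNB and JUND, the shYAPTAZ line against YAP1, which encodes YAP, and WWTR1, which encodes TAZ, and the parental line carried none. Lines with shRNA had also been selected with puromycin, blasticidin or hygromycin, according to how many genes were silenced. A line with shRNA against no target was not analysed here, so an effect of the shRNA, of the selection and of the silenced gene cannot be told apart.

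A basement membrane is a thin sheet under epithelia and around vessels in which networks of collagen IV and laminin are joined by nidogen, perlecan and agrin. The interstitial matrix is built of fibrillar collagens with fibronectin, microfibrils and proteoglycans, and in the kidney it is made mostly by fibroblasts. Collagen chains are hydroxylated and folded in the endoplasmic reticulum with the help of lysyl hydroxylases and of the collagen chaperone HSP47, the product of SERPINH1. Clear cell renal carcinoma usually lacks working VHL, which leaves HIF2A active, and HIF factors are known activators of several collagen hydroxylase genes. YAP and TAZ act through TEAD factors on genes of adhesion and matrix, and JUN proteins form the AP-1 factor.

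The libraries held between 2272459 and 4469956 counts, so that 3 counts in 1 library equalled 0.671 to 1.32 CPM, the unit of counts scaled to the TMM-adjusted library size. The labels call the replicates technical, and p-values therefore measure only the spread between these libraries. The silenced genes were lower in their own line: EPAS1 averaged 16.0 CPM in shHIF2A against 203 CPM in parental, JUND 38.5 CPM in shJUNs against 355 CPM in parental, YAP1 14.1 CPM in shYAPTAZ against 65.4 CPM in parental and WWTR1 153 CPM in shYAPTAZ against 311 CPM in parental. JUN averaged 85.6 CPM in shJUNs against 153 CPM in parental, and JUNB 113 CPM in shJUNs against 192 CPM in parental with overlapping libraries. Targets of one line also differed from parental in others: EPAS1 was lower in shJUNs (37.1 CPM) and shYAPTAZ (114 CPM), JUND in shHIF2A (220 CPM) and shYAPTAZ (170 CPM) and JUN in shHIF2A (80.2 CPM), while WWTR1 was higher in shHIF2A (503.5 CPM) and shJUNs (441 CPM). Of the 7 markers of a renal carcinoma line all had counts, and their summed level was 10360 to 10930 CPM in shHIF2A, 14380 to 15190 CPM in shJUNs, 15360 to 15900 CPM in shYAPTAZ and 14190 to 17690 CPM in parental. VIM made up most of that sum, with a mean of 9454 CPM in shHIF2A, where it fell, and 14960 CPM in parental. KRT8 rose in all 3 knockdowns and KRT18 in shHIF2A and shJUNs. Of 9 fibroblast markers DPT had no count and 6 stayed under 5 CPM in every library. Their summed level was 30.9 to 42.3 CPM in shHIF2A, 59.9 to 72.3 CPM in shJUNs, 82.2 to 195 CPM in shYAPTAZ and 23.2 to 44.3 CPM in parental, and ACTA2 alone rose among them, in shJUNs and shYAPTAZ. Of 8 endothelial markers PECAM1, CDH5, TEK and CLDN5 had no count, and EGFL7 fell in shYAPTAZ to 7.49 CPM, against 33.0 CPM in parental (log2 -2.17). Among the blood cell markers CD3E, LYZ and ITGAM had none.

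Of the 51 matrix genes 41 had enough counts to be tested, and 31 of these differed among the 4 groups at a Benjamini-Hochberg adjusted p under 0.05 (edgeR), where 38.7% of all 12301 tested genes did. In shHIF2A 11 of the 41 rose and 8 fell against parental, beside 9.84% and 8.8% of all tested genes. In shJUNs 12 rose and 5 fell, beside 10.3% and 8.93%. In shYAPTAZ 15 rose and 5 fell, beside 13.0% and 12.3%. The median log2 change of the 41 genes was 0.06 in shHIF2A, 0.31 in shJUNs and 0.31 in shYAPTAZ, while that of all tested genes was 0.005, -0.001 and 0.022. FN1, TNC, THBS1, FBN1, EFEMP1 and SERPINH1 rose in all 3 knockdowns, and TGFBI fell in all 3. A further 13 tested members passed in no comparison with parental. The share of all tested genes with such patterns over the 3 comparisons was not counted. All 3 comparisons use the same 3 parental libraries, so their agreement is not independent. When each of the 12 libraries was left out in turn, 9 of 11, 10 of 12 and 12 of 15 rises passed every time in shHIF2A, shJUNs and shYAPTAZ, and 1 of 8, 1 of 5 and 4 of 5 falls. The count of falls in shHIF2A was 1 without parental replicate 1, 3 without parental replicate 2, 5 without shHIF2A replicate 1, 4 without shHIF2A replicate 2 and 3 without shHIF2A replicate 3. That in shJUNs was 1 without parental replicate 1, 3 without shJUNs replicate 2 and 2 without shJUNs replicate 3. RNA of many cells was pooled, so less RNA in every cell and fewer cells with the RNA cannot be told apart.

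**Figure D1:**
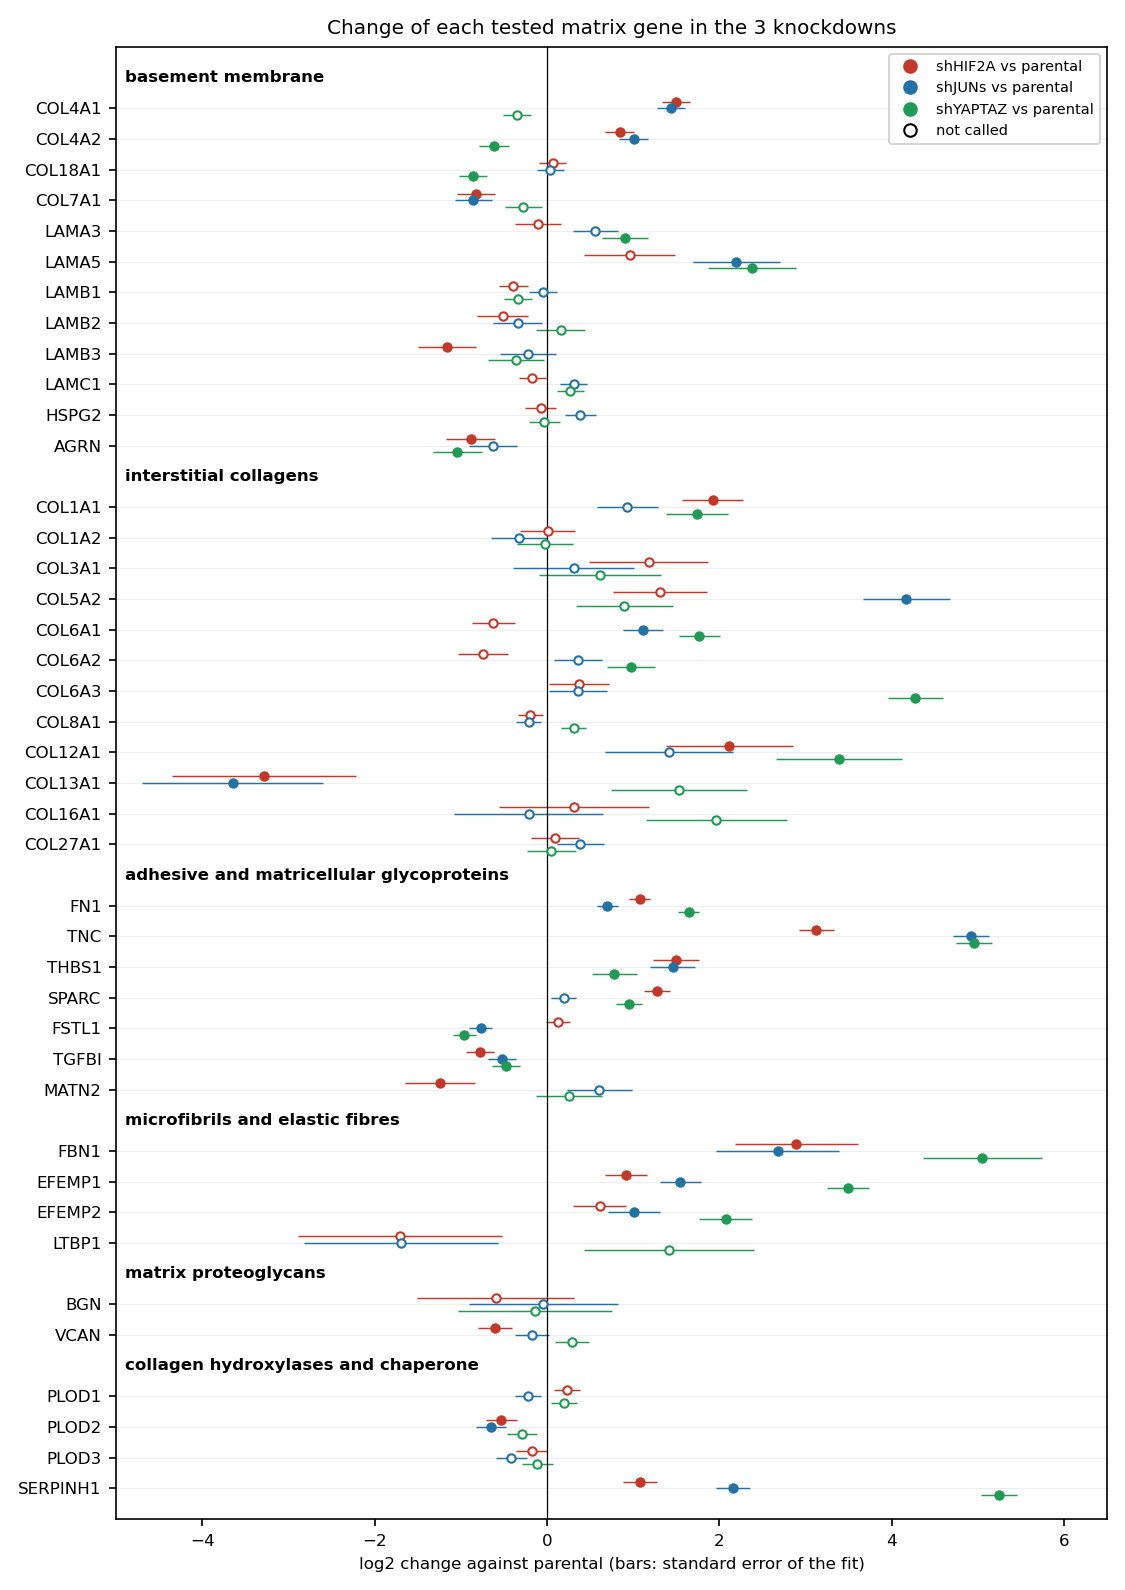
Log2 change of each of the 41 tested matrix genes against parental, with the standard error of the edgeR fit as bars. Red stands for shHIF2A, blue for shJUNs and green for shYAPTAZ, and filled points passed the test. SERPINH1 (5.25), FBN1 (5.05) and TNC (4.96) in shYAPTAZ lie farthest to the right.

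The main collagen chains of the basement membrane, COL4A1 and COL4A2, rose in shHIF2A and shJUNs and did not rise in shYAPTAZ. The genes encode the chains of the collagen IV trimer found in almost every basement membrane. They lie head to head on chromosome 13 (hg38: COL4A1, ENSG00000187498, minus strand, chr13:110148963-110307157; COL4A2, ENSG00000134871, plus strand, chr13:110305812-110513209). The 126 bases between their RefSeq starts (GRCh38.p14, chr13:110307158-110307283, plus strand) are shown because both genes start from this stretch in opposite directions. It is 80.2% G and C and holds none of the AP-1, TEAD, HIF core and heat shock letters searched for, so it has no capitals. The longest COL4A2 model of the counted annotation starts further back, within the span of COL4A1.
COL4A1-COL4A2 gap: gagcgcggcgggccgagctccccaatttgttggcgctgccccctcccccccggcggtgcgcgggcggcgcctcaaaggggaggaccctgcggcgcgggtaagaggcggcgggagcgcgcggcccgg

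COL4A1 stood at 1027, 958 and 635 CPM in shHIF2A, at 874, 839 and 799 CPM in shJUNs, at 277, 259 and 193 CPM in shYAPTAZ and at 358, 284 and 286 CPM in parental. All 6 libraries of shHIF2A and shJUNs lay above all 6 of shYAPTAZ and parental. The gene was 2.83-fold higher in shHIF2A (log2 1.50, SE 0.16, adjusted p = 1.42e-06) and 2.71-fold higher in shJUNs (log2 1.44, SE 0.16, adjusted p = 1.91e-06) than in parental. In shYAPTAZ its log2 change was -0.35 (SE 0.16, adjusted p = 0.128). COL4A2 stood at 320, 276 and 207 CPM in shHIF2A, at 298, 303 and 299 CPM in shJUNs, at 119, 97.4 and 76.6 CPM in shYAPTAZ and at 165, 146 and 136.5 CPM in parental. It was 1.79-fold higher in shHIF2A (log2 0.84, SE 0.17, adjusted p = 0.00142), 2.01-fold higher in shJUNs (log2 1.01, SE 0.17, adjusted p = 0.000234) and 1.54-fold lower in shYAPTAZ (log2 -0.62, SE 0.17, adjusted p = 0.0112) than in parental. Between the knockdowns, shYAPTAZ lay below shHIF2A by a log2 change of -1.85 for COL4A1 and -1.46 for COL4A2, and below shJUNs by -1.79 and -1.63, with adjusted p of 5.81e-08, 2.72e-06, 1.04e-07 and 8.48e-07. These 9 calls held without each of the 12 libraries, although that of COL4A2 in shYAPTAZ against parental reached an adjusted p of 0.05 after rounding without shYAPTAZ replicate 3.

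The fall of COL4A2 in shYAPTAZ went with a shift of its chromosome. The 216 other tested genes of chromosome 13 had a median log2 change of -0.52 in shYAPTAZ (quartiles -1.11 and -0.16), and 31.0% of them fell. Their medians were 0.02 in shHIF2A and -0.14 in shJUNs. Chromosome 13 supplied 0.915% to 0.943% of the counts in shYAPTAZ, against 1.36% to 1.42% in parental. Relative to the chromosome's median, COL4A1 and COL4A2 lay at 0.18 and -0.10 in shYAPTAZ, at 1.48 and 0.82 in shHIF2A and at 1.58 and 1.15 in shJUNs. The part of the shift in the fall of COL4A2 was not tested.

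The ratio of COL4A1 counts to COL4A2 counts, used only to compare libraries, was 3.21, 3.48 and 3.06 in shHIF2A, 2.93, 2.77 and 2.67 in shJUNs, 2.33, 2.66 and 2.52 in shYAPTAZ and 2.17, 1.94 and 2.09 in parental. All 9 knockdown libraries lay above the 3 parental ones. A two-sided exact permutation test of 3 against 3 libraries cannot go below p = 0.1, and each knockdown reached that value (adjusted p = 0.125 over 15 such comparisons of 5 gene pairs).

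**Figure D2:**
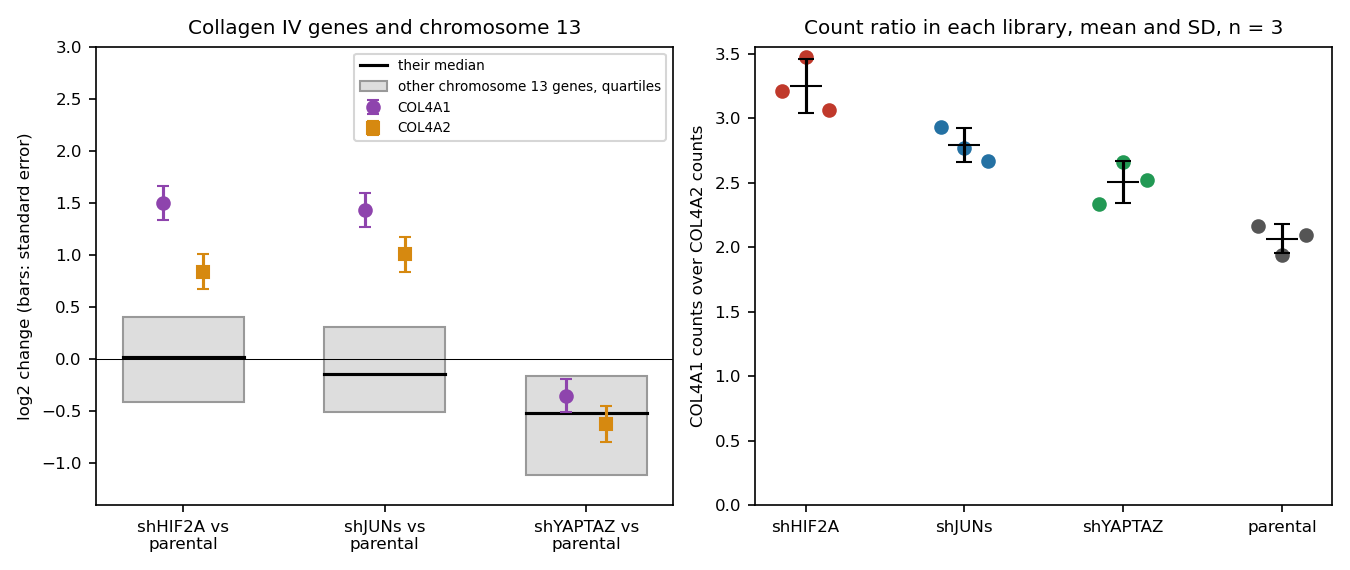
Left, log2 change of COL4A1 and COL4A2 against parental with the standard error of the fit, over the quartiles and the median of the 216 other tested genes of chromosome 13. Right, COL4A1 counts over COL4A2 counts in each library with the group mean and SD (n = 3). In shYAPTAZ both genes lie within the chromosome's quartiles of -1.11 and -0.16, and in shHIF2A and shJUNs they lie above them.

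Among the other basement membrane genes COL18A1, COL7A1, LAMB3 and AGRN fell and LAMA3 and LAMA5 rose in 1 or 2 of the knockdowns. COL18A1, the source of endostatin, fell in shYAPTAZ to 164, 124 and 134 CPM, against 295, 254 and 218 CPM in parental (log2 -0.86, SE 0.16, adjusted p = 0.000381), with no overlap. Its log2 change was 0.06 in shHIF2A and 0.04 in shJUNs. COL7A1, the collagen of anchoring fibrils, fell in shHIF2A to 34.2, 37.7 and 42.4 CPM and in shJUNs to 38.6, 38.7 and 34.4 CPM, against 86.9, 57.1 and 58.5 CPM in parental (log2 -0.82 and -0.85, adjusted p = 0.0114 and 0.0078). Parental replicate 1 was the highest of the 9 libraries, and without it the falls did not pass (adjusted p = 0.083 in shHIF2A and 0.066 in shJUNs). The shHIF2A call also ended without shHIF2A replicate 1 (adjusted p = 0.0513). AGRN, agrin, fell in shYAPTAZ to 11.8, 16.9 and 14.0 CPM, against 31.4, 26.7 and 30.2 CPM in parental (log2 -1.04, SE 0.29, adjusted p = 0.00974). In shHIF2A it stood at 18.3, 17.1 and 12.3 CPM (log2 -0.88, adjusted p = 0.0323), a call that ended without parental replicate 1 (0.0849), 2 (0.0505) or 3 (0.0744), without shHIF2A replicate 2 (0.0627) or 3 (0.123), and with no filter on low counts (0.0786). HSPG2, perlecan, ranged from 69.4 to 124 CPM over the 12 libraries and passed in no comparison.

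Laminins are trimers of an alpha, a beta and a gamma chain, and here it was alpha chains that rose. LAMA5 stood at 9.86, 10.9 and 3.50 CPM in shHIF2A, at 25.1, 14.9 and 17.7 CPM in shJUNs, at 35.0, 23.2 and 8.68 CPM in shYAPTAZ and at 5.93, 4.22 and 2.54 CPM in parental. It was 4.58-fold higher in shJUNs (log2 2.19, SE 0.51, adjusted p = 0.00358) and 5.21-fold higher in shYAPTAZ (log2 2.38, SE 0.51, adjusted p = 0.00142), and its 0.96 in shHIF2A did not pass. Exons of LAMA5 overlap ADRM1 on the opposite strand, which held 3902 counts in all beside 554 of LAMA5, and the sources used here do not say whether the counting used strand. LAMA3, the alpha chain of laminin 332, stood at 144, 108 and 59.0 CPM in shYAPTAZ, against 76.1, 43.3 and 45.8 CPM in parental (log2 0.91, SE 0.27, adjusted p = 0.0149). These groups overlapped, and the call ended without parental replicate 2 (0.0789) or 3 (0.0685), without shYAPTAZ replicate 1 (0.0926) or 2 (0.0507), and in a fit of these 6 libraries alone (0.0503). LAMB3, the beta chain of the same laminin, fell in shHIF2A to 17.4, 11.8 and 16.5 CPM, against 37.3, 38.8 and 26.3 CPM in parental (log2 -1.16, SE 0.34, adjusted p = 0.02). That call ended without parental replicate 1 (0.0582) or 2 (0.07) or shHIF2A replicate 2 (0.0906). LAMB1, LAMB2 and LAMC1, the beta and gamma chains of the broadly expressed laminins, passed in no comparison of 2 groups, with log2 changes between -0.52 and 0.31 against parental. LAMA4 and NID1, nidogen, had at most 7 and 10 counts in any group and were not tested.

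LAMA3 was 1 of 2 genes among the 39 members with a RefSeq promoter entry to hold the AP-1 letters TGANTCA within 250 bases before and 50 after the start. Its 250 upstream bases (GRCh38.p14, chr18:23872770-23873019, plus strand) are shown because they hold those letters, in capitals, 125 and 69 bases upstream of the start. This start lies inside the span of the counted gene (hg38, chr18:23689453-23956222), and the counts of a gene do not separate its starts. The log2 change of LAMA3 counts in shJUNs was 0.56 (SE 0.26, adjusted p = 0.145). No change of the whole gene's counts thus passed in the line with shRNA against the JUN genes.
LAMA3 upstream: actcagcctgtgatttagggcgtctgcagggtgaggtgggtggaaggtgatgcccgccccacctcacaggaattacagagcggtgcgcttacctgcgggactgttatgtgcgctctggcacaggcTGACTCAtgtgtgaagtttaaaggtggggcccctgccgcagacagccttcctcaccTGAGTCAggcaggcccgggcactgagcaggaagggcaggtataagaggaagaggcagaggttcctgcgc

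The summed level of the basement membrane genes was highest in shHIF2A and shJUNs through COL4A1 and COL4A2, and that of the interstitial collagens was highest in shYAPTAZ. The 14 basement membrane genes together made 2193, 2030 and 1529 CPM in shHIF2A, 2132, 2135 and 1998 CPM in shJUNs, 1310, 1166 and 977 CPM in shYAPTAZ and 1567, 1286 and 1243 CPM in parental. Without COL4A1 and COL4A2 the sums were 846, 797 and 687 CPM in shHIF2A, 959, 994 and 900 CPM in shJUNs, 913, 810 and 707 CPM in shYAPTAZ and 1044, 856 and 821 CPM in parental, so that every knockdown overlapped parental. The 13 interstitial collagens made 410.5, 364 and 323 CPM in shHIF2A, 433, 435 and 389 CPM in shJUNs, 771, 652 and 611 CPM in shYAPTAZ and 401, 362 and 397 CPM in parental. All shYAPTAZ libraries thus held the highest interstitial sums, and 2 of them the lowest basement membrane sums. The largest part of the interstitial sum was COL8A1, which did not pass against parental, at a mean of 336 CPM in shYAPTAZ and 270 CPM in parental. COL6A3 averaged 120 and 6.16 CPM in these groups, and COL6A1 77.2 and 22.6 CPM. The fibrillar chains COL1A1, COL1A2 and COL3A1 averaged 20.9, 18.0 and 4.45 CPM in shYAPTAZ and 6.26, 18.1 and 2.86 CPM in parental. By gene, 2 of 12 tested basement membrane genes rose and 3 fell in shHIF2A, 3 rose and 1 fell in shJUNs, and 2 rose and 3 fell in shYAPTAZ, with median log2 changes of -0.14, 0.17 and -0.31. As shares these were 16.7% and 25%, 25% and 8.33%, and 16.7% and 25%, to be read beside the 9.84% and 8.8%, 10.3% and 8.93%, and 13.0% and 12.3% of all tested genes that rose and fell. Of 12 tested interstitial collagens 2 rose and 1 fell in shHIF2A, 2 rose and 1 fell in shJUNs, and 5 rose and none fell in shYAPTAZ, with medians of 0.20, 0.36 and 1.25. The 5 in shYAPTAZ were 41.7%, and in shHIF2A and shJUNs the shares, 16.7% higher and 8.33% lower in each, rest on 1 or 2 genes. No difference between the lists was tested. The summed fibroblast markers were also highest in the shYAPTAZ libraries, where ACTA2 had 73.5, 149 and 192 CPM, against 25.5, 20.5 and 14.1 CPM in parental. Of the other 2 tested fibroblast markers, PDGFRB and LUM both fell there (adjusted p = 0.0158 and 0.00227). Their part in the rise of interstitial collagens was not tested.

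**Figure D3:**
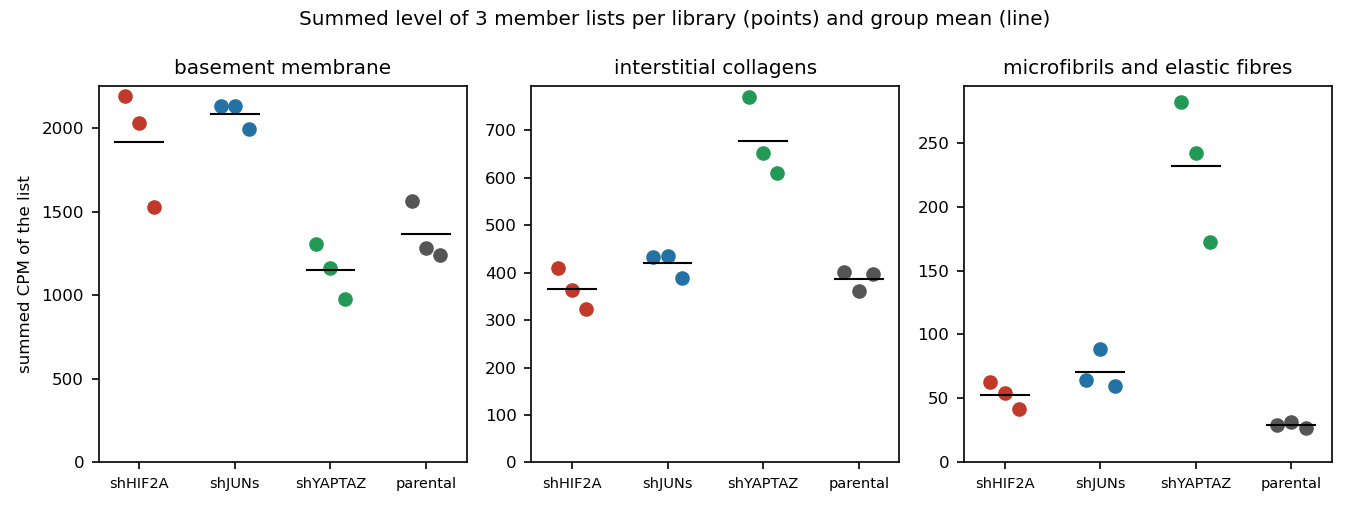
Summed CPM of the basement membrane, interstitial collagen and microfibril lists in each library (points) with the group mean (line). The interstitial collagens sum to 611 to 771 CPM in shYAPTAZ and to 323 to 435 CPM in the other 9 libraries.

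Of the genes of collagen I, the main fibrillar collagen, only COL1A1 passed. COL1A1 (ENSG00000108821, chr17:50184101-50201632) stood at 29.9, 25.6 and 16.1 CPM in shHIF2A, at 11.1, 15.5 and 9.61 CPM in shJUNs, at 16.8, 21.6 and 24.3 CPM in shYAPTAZ and at 5.24, 6.75 and 6.78 CPM in parental. All 9 knockdown libraries lay above the parental ones. It was 3.79-fold higher in shHIF2A (log2 1.92, SE 0.36, adjusted p = 0.000608) and 3.34-fold higher in shYAPTAZ (log2 1.74, SE 0.36, adjusted p = 0.000948), and its 0.93 in shJUNs did not pass (adjusted p = 0.0717). COL1A2, the partner chain, ranged from 13.3 to 24.5 CPM over the 12 libraries, with log2 changes of 0.01, -0.32 and -0.02 in shHIF2A, shJUNs and shYAPTAZ. The ratio of COL1A1 to COL1A2 counts averaged 1.30 ± 0.304 in shHIF2A, 0.846 ± 0.272 in shJUNs, 1.27 ± 0.503 in shYAPTAZ and 0.359 ± 0.0709 in parental (SD, n = 3 each), with no overlap of any knockdown with parental (exact permutation p = 0.1, the smallest possible, adjusted p = 0.125). COL3A1, another fibrillar chain, had between 1.91 and 12.5 CPM and passed in no comparison.

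COL5A2, a chain of the collagen V that starts fibrils, was high in shJUNs alone. It stood at 2.32, 4.05 and 4.20 CPM in shHIF2A, at 23.5, 33.4 and 20.1 CPM in shJUNs, at 2.27, 2.87 and 2.65 CPM in shYAPTAZ and at 0.698, 1.97 and 1.41 CPM in parental. In shJUNs it was 18.0-fold higher than in parental (log2 4.17, SE 0.51, adjusted p = 4.11e-06) and 7.25-fold higher than in shHIF2A (adjusted p = 0.000318). In shYAPTAZ it was 9.68-fold lower than in shJUNs (adjusted p = 4.13e-05). The log2 changes of 1.31 in shHIF2A and 0.90 in shYAPTAZ against parental did not pass. COL5A1, the other collagen V chain of the list, had 5 to 13 counts in each group and was not tested.

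The 3 genes of collagen VI, which forms beaded filaments around cells, rose in shYAPTAZ, with log2 changes of 4.28 (COL6A3), 1.77 (COL6A1) and 0.97 (COL6A2). COL6A3 (ENSG00000163359, chr2:237324003-237414328) stood at 6.09, 11.8 and 5.96 CPM in shHIF2A, at 9.98, 9.08 and 4.69 CPM in shJUNs, at 141, 111 and 108 CPM in shYAPTAZ and at 6.63, 6.75 and 5.09 CPM in parental. It was 19.4-fold higher in shYAPTAZ than in parental (log2 4.28, SE 0.32, adjusted p = 1.58e-09), and its changes of 0.38 in shHIF2A and 0.36 in shJUNs did not pass. COL6A1 stood at 19.1, 14.0 and 10.5 CPM in shHIF2A, at 43.9, 51 and 51.9 CPM in shJUNs, at 89.4, 68.8 and 73.5 CPM in shYAPTAZ and at 24.1, 23.3 and 20.4 CPM in parental. It was 3.41-fold higher in shYAPTAZ (log2 1.77, SE 0.23, adjusted p = 7.25e-06) and 2.17-fold higher in shJUNs (log2 1.11, SE 0.23, adjusted p = 0.00158), and in shHIF2A every library lay below parental with a log2 change of -0.62 that did not pass (adjusted p = 0.0835). COL6A2, which neighbours COL6A1 on chromosome 21, stood at 34.5, 33.8 and 35.4 CPM in shYAPTAZ, against 15.7, 15.2 and 21.8 CPM in parental (log2 0.97, SE 0.27, adjusted p = 0.0112). Without parental replicate 2 that call ended (adjusted p = 0.0537). The ratio of COL6A3 to COL6A1 counts averaged 0.576 ± 0.263 in shHIF2A, 0.165 ± 0.0693 in shJUNs, 1.55 ± 0.0737 in shYAPTAZ and 0.272 ± 0.0199 in parental (SD, n = 3 each), and no knockdown overlapped parental (exact permutation p = 0.1 each, the smallest possible, adjusted p = 0.125). It was higher than in parental in shHIF2A and shYAPTAZ and lower in shJUNs.

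Of the remaining collagens of the list COL12A1 rose and COL13A1 fell in some of the knockdowns. COL12A1, a collagen that binds to fibrils, stood at 4.64, 4.05 and 6.31 CPM in shHIF2A, at 22.2, 7.32 and 7.23 CPM in shYAPTAZ and at 1.75, 1.12 and 0.565 CPM in parental. It was 10.5-fold higher in shYAPTAZ (log2 3.39, SE 0.73, adjusted p = 0.00148), where replicate 1 stood apart, and without that library its log2 change was 2.66 (adjusted p = 0.0167). The rise in shHIF2A (log2 2.12, adjusted p = 0.0479) ended without parental replicate 1 (0.0606), 2 (0.11) or 3 (0.139), shHIF2A replicate 1 (0.0754), 2 (0.0689) or 3 (0.119), shJUNs replicate 1 (0.059) or 2 (0.0528) or shYAPTAZ replicate 2 (0.0534), and under limma-voom (0.109), with no filter (0.052) and in a fit of the 6 libraries alone (0.0551). COL13A1, a transmembrane collagen, had 3 counts in all of shHIF2A, 3 in all of shJUNs, 99 in shYAPTAZ and 32 in parental. Scaled for depth, its parental count was 10.2 times that of shHIF2A (95% interval 3.19 to 52.0, counting error only) and 13.6 times that of shJUNs (4.27 to 69.6), and these falls passed (adjusted p = 0.0349 and 0.0173). The shHIF2A call ended without parental replicate 1 (0.191), where 6.63 CPM stood against 1.97 and 1.70 CPM in the other parental libraries, and without shHIF2A replicate 1 (0.12) or 3 (0.111). Without shHIF2A replicate 2, which held all 3 counts, the fitted log2 change was -6.58 (adjusted p = 0.0165). The shJUNs call ended without parental replicate 1 (0.12) or shJUNs replicate 2 (0.056) or 3 (0.0838), and limma-voom gave 0.0737 and 0.0576. COL16A1 stood at 4.54, 3.18 and 8.43 CPM in shYAPTAZ, against 0.349, 1.97 and 1.70 CPM in parental, and did not pass (log2 1.97, adjusted p = 0.0843). COL8A1, a collagen of short chains, stood at 375, 349 and 284 CPM in shYAPTAZ, against 269, 256 and 285 CPM in parental, and COL27A1 ranged from 24.0 to 53.0 CPM over the 12 libraries. Neither passed against parental.

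Of 7 tested adhesive and matricellular glycoproteins 4 rose and 2 fell in shHIF2A, 3 rose and 2 fell in shJUNs, and 4 rose and 2 fell in shYAPTAZ. As shares these were 57.1% and 28.6%, 42.9% and 28.6%, and 57.1% and 28.6%, each of 2 to 4 genes. Of all tested genes 9.84% and 8.8%, 10.3% and 8.93%, and 13.0% and 12.3% rose and fell. The median log2 changes of the 7 glycoproteins were 1.08, 0.61 and 0.78. FN1, fibronectin, a ligand of integrins (ENSG00000115414, chr2:215360440-215436073), stood at 1181, 1054 and 864 CPM in shHIF2A, at 842, 789 and 760 CPM in shJUNs, at 1578, 1370 and 1646 CPM in shYAPTAZ and at 489, 452 and 530 CPM in parental. No knockdown overlapped parental, and the gene was 2.11-fold, 1.62-fold and 3.12-fold higher in shHIF2A, shJUNs and shYAPTAZ (log2 1.07, 0.70 and 1.64, SE 0.12 each, adjusted p = 1.85e-06, 0.000274 and 1.58e-09). TNC, tenascin C, a glycoprotein of remodelled matrix (ENSG00000041982, chr9:115019575-115118207), stood at 84.9, 60.8 and 62.4 CPM in shHIF2A, at 243, 222 and 256 CPM in shJUNs, at 209, 269 and 263 CPM in shYAPTAZ and at 7.33, 7.31 and 9.04 CPM in parental. The log2 changes were 3.13, 4.92 and 4.96 (SE 0.21 each, adjusted p = 6.76e-10, 3.41e-13 and 1e-13). The shYAPTAZ and shJUNs libraries overlapped, and both lay above shHIF2A by log2 1.83 and 1.79 (adjusted p = 7.45e-08 and 3.22e-07).

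THBS1, thrombospondin 1, which can release active TGF-beta, stood at 243, 343 and 475 CPM in shHIF2A, at 345, 328 and 358 CPM in shJUNs, at 158, 169 and 314 CPM in shYAPTAZ and at 93.2, 136 and 145 CPM in parental. It rose 2.83-fold in shHIF2A (adjusted p = 0.000934) and 2.75-fold in shJUNs (adjusted p = 0.00104). Its rise in shYAPTAZ (log2 0.78, adjusted p = 0.0382) ended without parental replicate 1 (0.185), 2 (0.0725) or 3 (0.0526), shJUNs replicate 1 (0.0502), 2 (0.0531) or 3 (0.0509) or shYAPTAZ replicate 3 (0.217), and under limma-voom (0.065). SPARC, a matricellular protein that binds collagen, stood at 2630, 2330 and 1898 CPM in shHIF2A, at 1178, 1081 and 965 CPM in shJUNs, at 2166, 1910 and 1385 CPM in shYAPTAZ and at 1081, 917 and 822 CPM in parental. It rose in shHIF2A (log2 1.28, adjusted p = 5.53e-06) and shYAPTAZ (log2 0.95, adjusted p = 8.35e-05), and not in shJUNs (log2 0.19, adjusted p = 0.405). FSTL1, a secreted relative of SPARC, stood at 2984, 2481 and 2085 CPM in shHIF2A, at 1476, 1324 and 1254 CPM in shJUNs, at 1428, 1194 and 930 CPM in shYAPTAZ and at 2215, 2346 and 2346 CPM in parental. It fell in shJUNs (log2 -0.77, adjusted p = 0.000361) and shYAPTAZ (log2 -0.96, adjusted p = 1.97e-05), with no overlap with parental.

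TGFBI, a TGF-beta-induced adhesion protein, was the 1 member that fell in all 3 knockdowns. It stood at 2077, 1796 and 1516 CPM in shHIF2A, at 2233, 2232 and 1949 CPM in shJUNs, at 2821, 2235 and 1568 CPM in shYAPTAZ and at 3402, 3057 and 2761 CPM in parental. Replicate 1 of shYAPTAZ lay above the lowest parental library. The fall in shHIF2A (log2 -0.77, adjusted p = 0.00266) held without each of the 12 libraries. The fall in shJUNs (log2 -0.52, adjusted p = 0.0287) ended without parental replicate 1 (0.152) or 2 (0.0635) or shJUNs replicate 1 (0.0551), 2 (0.0588) or 3 (0.105). That in shYAPTAZ (log2 -0.48, adjusted p = 0.0365) ended without parental replicate 1 (0.168) or 2 (0.0737) or shYAPTAZ replicate 2 (0.0805) or 3 (0.0962), and in a fit of the 6 libraries alone (0.0716). MATN2, matrilin 2, an adaptor between matrix fibres, fell in shHIF2A to 10.4, 13.4 and 6.31 CPM, against 28.6, 27.6 and 15.8 CPM in parental (log2 -1.24, adjusted p = 0.0363). That call ended without parental replicate 1 (0.116) or 2 (0.105) or shHIF2A replicate 1 (0.0827) or 3 (0.136), and under limma-voom (0.103). THBS2 had 9 counts in all 12 libraries.

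Of the 4 tested genes of microfibrils and elastic fibres FBN1, EFEMP1 and EFEMP2 rose and LTBP1 did not pass: 2 rose in shHIF2A, 3 in shJUNs and 3 in shYAPTAZ, and none fell. The shares that rose were 50%, 75% and 75%, beside 9.84%, 10.3% and 13.0% of all tested genes, and rest on 2 or 3 genes each. The other 5 genes of the list (FBN2, FBLN1, EMILIN1, MFAP2 and MFAP5) had too few counts, and MFAP2 and MFAP5 had none. FBN1, fibrillin 1, the backbone of microfibrils (ENSG00000166147, chr15:48408313-48645721), stood at 11.3, 7.17 and 4.20 CPM in shHIF2A, at 5.10, 8.81 and 5.81 CPM in shJUNs, at 50.8, 36.0 and 16.4 CPM in shYAPTAZ and at 0.349, 2.53 and 0 CPM in parental. Parental replicate 3 had no count and the group 10 in all, so the fitted log2 changes of 2.90, 2.68 and 5.05 (adjusted p = 0.00688, 0.0109 and 1.35e-05) lean on few parental counts. Without parental replicate 2 they were 5.30, 5.09 and 7.46 (adjusted p = 0.00103, 0.00141 and 5.31e-06), and without parental replicate 3 they were 2.30, 2.08 and 4.45 (adjusted p = 0.0271, 0.0436 and 7.51e-05). The shJUNs call ended without parental replicate 1 (log2 2.33, adjusted p = 0.0528), and limma-voom ended those in shHIF2A (0.054) and shJUNs (0.0606). All 9 knockdown libraries lay above the 3 parental ones.

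EFEMP1, fibulin 3, stood at 25.2, 19.6 and 21.0 CPM in shHIF2A, at 29.3, 42.2 and 31.1 CPM in shJUNs, at 149, 138 and 109 CPM in shYAPTAZ and at 11.9, 9.56 and 13.6 CPM in parental. No group overlapped another. It was 11.3-fold higher in shYAPTAZ (log2 3.49, SE 0.24, adjusted p = 5.35e-10) and 2.92-fold higher in shJUNs (log2 1.55, SE 0.24, adjusted p = 7.59e-05) than in parental. The rise in shHIF2A (log2 0.91, adjusted p = 0.0118) ended without parental replicate 2 (0.0663) or shHIF2A replicate 1 (0.0539), under limma-voom (0.0636) and in a fit of the 6 libraries alone (0.0628). EFEMP2, fibulin 4, which elastic fibre assembly needs, stood at 77.2, 58.6 and 45.3 CPM in shYAPTAZ, against 15.7, 14.9 and 12.2 CPM in parental (log2 2.07, SE 0.30, adjusted p = 2.62e-05). In shJUNs it stood at 28.8, 36.0 and 21.2 CPM (log2 1.01, adjusted p = 0.0217), a call that ended without parental replicate 2 (0.052) or 3 (0.0776) or shJUNs replicate 1 (0.0558) or 2 (0.113). Exons of EFEMP2 overlap MUS81 on the opposite strand, with 2176 counts in all beside 1253. LTBP1, which binds latent TGF-beta to matrix, passed in no comparison of 2 groups.

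FBN1 was among 5 of the 39 promoters with the TEAD letters GGAATG, with COL12A1, THBS1, THBS2 and SPARC. Its 250 upstream bases (GRCh38.p14, chr15:48644971-48645220, minus strand) are shown because FBN1 was the most changed of those tested in the line silenced for the partners of TEAD. The capitals mark GGAATG, 58 bases upstream of the start, and the HIF core letters (CACGC is GCGTG on the other strand), 88 bases upstream.
FBN1 upstream: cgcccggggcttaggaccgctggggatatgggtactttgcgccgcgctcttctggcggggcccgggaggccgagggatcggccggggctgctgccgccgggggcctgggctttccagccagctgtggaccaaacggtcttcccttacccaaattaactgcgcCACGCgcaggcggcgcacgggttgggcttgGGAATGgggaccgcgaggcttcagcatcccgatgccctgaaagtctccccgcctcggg

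Against parental the proteoglycans gave 1 call. VCAN, versican, a large proteoglycan of loose matrix, stood at 474, 439 and 331 CPM in shHIF2A, against 562, 671 and 663 CPM in parental (log2 -0.61, adjusted p = 0.04). That call ended without parental replicate 1 (0.0693), 2 (0.101) or 3 (0.102) or shHIF2A replicate 2 (0.0698) or 3 (0.151), and under limma-voom (0.053). BGN, biglycan, had at most 5.45 CPM and passed nowhere, and DCN, decorin, had at most 4 counts in a group.

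Among the collagen-modifying genes the chaperone rose in every knockdown and no lysyl hydroxylase rose. SERPINH1 (ENSG00000149257, chr11:75562056-75572783) stood at 36.5, 30.6 and 42.0 CPM in shHIF2A, at 65.7, 70.0 and 94.1 CPM in shJUNs, at 698, 656.5 and 605 CPM in shYAPTAZ and at 21.6, 14.1 and 16.1 CPM in parental. The 4 groups were ordered without overlap, with shYAPTAZ highest, then shJUNs, shHIF2A and parental. The gene was 2.12-fold higher in shHIF2A (log2 1.08, SE 0.20, adjusted p = 0.000568), 4.46-fold higher in shJUNs (log2 2.16, SE 0.19, adjusted p = 5.53e-08) and 38.0-fold higher in shYAPTAZ (log2 5.25, SE 0.21, adjusted p = 6.49e-14) than in parental. Every pair of knockdowns differed as well: shJUNs lay above shHIF2A by log2 1.08 (adjusted p = 0.000506), shYAPTAZ above shHIF2A by 4.17 (adjusted p = 6.91e-13) and shYAPTAZ above shJUNs by 3.09 (adjusted p = 4.5e-11). All 6 calls held without each of the 12 libraries. PLOD2, the lysyl hydroxylase of collagen telopeptides and a known HIF target, stood at 362, 396 and 371 CPM in shHIF2A, at 378, 354 and 308 CPM in shJUNs and at 651, 531 and 446 CPM in parental, and fell by 0.53 and 0.65 on the log2 scale (adjusted p = 0.0394 and 0.0123). The shHIF2A call ended without parental replicate 1 (0.174) or 2 (0.0752) or shHIF2A replicate 1 (0.106), 2 (0.0749) or 3 (0.0958), and the shJUNs call without parental replicate 1 (0.0744) or shJUNs replicate 3 (0.0723). PLOD1 and PLOD3, the other lysyl hydroxylases, passed nowhere, with log2 changes between -0.41 and 0.23 against parental.

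The 250 bases upstream of the RefSeq start of SERPINH1 (GRCh38.p14, chr11:75562003-75562252, plus strand) are shown because this was the member with the largest change and because HSP47 is a known heat shock gene. The capitals mark the heat shock element letters GAANNTTC or TTCNNGAA, which begin 76 and 71 bases upstream and overlap each other. They occur in 5 of the 39 member promoters and in 13.7% of all 27305.
SERPINH1 upstream: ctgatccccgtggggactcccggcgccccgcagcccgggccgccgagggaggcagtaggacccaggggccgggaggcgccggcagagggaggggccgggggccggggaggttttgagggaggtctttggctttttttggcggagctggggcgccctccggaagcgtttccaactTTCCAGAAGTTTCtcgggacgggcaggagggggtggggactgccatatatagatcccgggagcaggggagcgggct

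**Figure D4:**
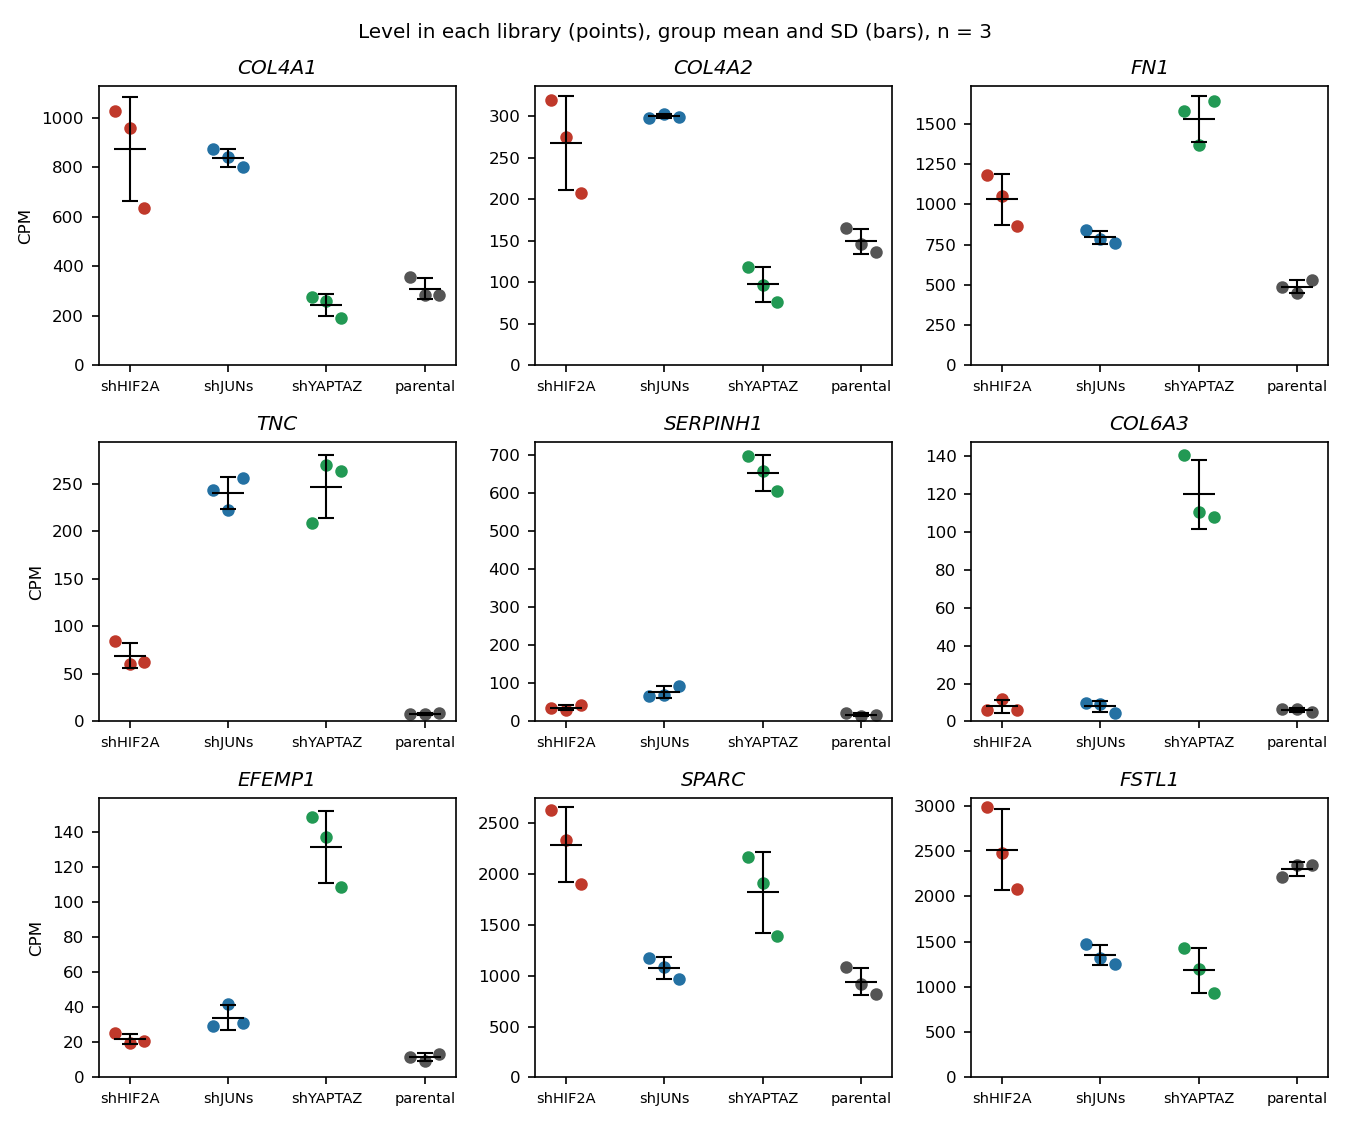
CPM of 9 matrix genes in each library (points), with the group mean and SD (n = 3), from left to right shHIF2A, shJUNs, shYAPTAZ and parental. SERPINH1 stands at 605 to 698 CPM and COL6A3 at 108 to 141 CPM in shYAPTAZ, far above the other groups, while COL4A1 is highest in shHIF2A and shJUNs.

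Over all 39 promoters, windows of 250 bases before and 50 after the start were searched on both strands. The AP-1 letters were in 2 of them (LAMA3 and MFAP2) and in 7.76% of all promoters, the TEAD letters in 5 and in 14.0% of all, and the HIF core letters ACGTG or GCGTG in 19 and in 48.4% of all. The shares among members were 5.13%, 12.8% and 48.7%, and 12.8% for the heat shock element. A match is a description of letters and no measure of binding.

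Set against each other, more members differed where shYAPTAZ was one of the pair, and so did more of all tested genes. In shJUNs 6 members were higher and 2 lower than in shHIF2A, beside 4.36% and 3.17% of all tested genes. The higher ones were TNC, COL5A2, COL6A1, SERPINH1, COL6A2 and MATN2, and the lower ones SPARC (log2 -1.09, adjusted p = 7.29e-05) and FSTL1 (log2 -0.90, adjusted p = 0.000175). The COL6A2 call ended without shHIF2A replicate 2 (0.0678) or 3 (0.0701) or shJUNs replicate 2 (0.0528) or 3 (0.084), and that of MATN2 without shJUNs replicate 1 (0.0508). The count lower was 4 in place of 2 without shHIF2A replicate 3 or without shYAPTAZ replicate 1. In shYAPTAZ 15 members were higher and 4 lower than in shHIF2A, beside 9.71% and 8.72%, and 11 were higher and 4 lower than in shJUNs, beside 7.87% and 8.27%. The count higher than in shJUNs was 7 in place of 11 without shJUNs replicate 3. The median log2 difference of the 41 members was 0.16 for shJUNs over shHIF2A, 0.51 for shYAPTAZ over shHIF2A and 0.34 for shYAPTAZ over shJUNs. COL4A1, COL4A2 and COL18A1 were lower in shYAPTAZ than in both other knockdowns.

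COL6A3, COL13A1, FN1, FBN1, EFEMP1 and SERPINH1 were higher in shYAPTAZ than in shHIF2A and than in shJUNs, and these calls held without each of the 12 libraries. COL6A3 led the collagens, 14.9-fold above shHIF2A (log2 3.90, adjusted p = 8.02e-09) and 15.1-fold above shJUNs (log2 3.92, adjusted p = 4.9e-09). The scaled count of COL13A1 in shYAPTAZ was 33.0 times that of shHIF2A (95% interval 11 to 163) and 44.2 times that of shJUNs (14.7 to 218). Its fitted log2 difference grew to 8.11 without shHIF2A replicate 2 (adjusted p = 0.00254) and to 5.94 without shJUNs replicate 1 (adjusted p = 0.00638). COL8A1 was 1.42-fold above shHIF2A (adjusted p = 0.0162) and 1.44-fold above shJUNs (adjusted p = 0.0142). The first ended without shHIF2A replicate 2 (0.0618) or 3 (0.0826) or shYAPTAZ replicate 1 (0.0556) or 2 (0.0593), and the second without shJUNs replicate 2 (0.0597) or 3 (0.0941) or shYAPTAZ replicate 2 (0.0607). VCAN in shYAPTAZ, at 1081, 716 and 523 CPM, lay 1.86-fold above shHIF2A (log2 0.90, adjusted p = 0.00393).

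Among other genes of matrix production, listed by role but with earlier results of these data known, the shares that passed were in part near those of all tested genes. Of 29 genes of collagen synthesis and processing 23 were tested: 3 rose and 3 fell in shHIF2A, 1 rose and 6 fell in shJUNs, and 3 rose and 7 fell in shYAPTAZ. The shares that rose, 13.0%, 4.35% and 13.0%, lay near or below the 9.84%, 10.3% and 13.0% of all tested genes, and those that fell were 13.0%, 26.1% and 30.4% beside 8.8%, 8.93% and 12.3%. The 4 named here had the smallest adjusted p in the list. PCOLCE2, an enhancer of procollagen cleavage, rose in all 3 (log2 1.29, 1.53 and 2.87, adjusted p = 0.00575, 0.00114 and 4.36e-07). P4HA1 and P4HB, subunits of the prolyl hydroxylase, fell in shYAPTAZ (log2 -1.13 and -0.90, adjusted p = 4.88e-05 and 1.71e-05), so that in that line the chaperone SERPINH1 rose while these hydroxylase subunits fell. COLGALT1, which adds galactose to collagen, fell in all 3 (log2 -0.55, -0.79 and -0.59, adjusted p = 0.00488, 0.000175 and 0.00201).

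Of 23 further basement membrane genes 9 were tested, and none rose and 1 fell in shHIF2A, 2 rose and 1 fell in shJUNs, and 4 rose and 2 fell in shYAPTAZ. In shYAPTAZ these were 44.4% and 22.2%, beside 13.0% and 12.3% of all tested genes, and in the other knockdowns the counts were of 0 to 2 genes. The shares were 0% and 11.1% in shHIF2A, beside 9.84% and 8.8%, and 22.2% and 11.1% in shJUNs, beside 10.3% and 8.93%. NID2, the second nidogen, stood at 198, 118 and 68.7 CPM in shYAPTAZ, against 1.05, 0.562 and 1.70 CPM in parental (log2 6.81, SE 0.49, adjusted p = 1.19e-09). PAPLN, papilin, had 3 counts in parental, and its scaled count was 86.6 times as high in shJUNs (95% interval 29.4 to 422) and 81.8 times as high in shYAPTAZ (27.7 to 400) (adjusted p = 2.9e-06 and 1.4e-06). Without parental replicate 3 the fitted log2 changes of PAPLN were 7.06 and 7.18 in place of 6.25 and 6.38, and without shYAPTAZ replicate 1 that in shYAPTAZ was 5.73. TINAGL1 fell to 32.7, 39.5 and 27.2 CPM in shYAPTAZ, against 201, 192 and 168 CPM in parental (log2 -2.50, adjusted p = 6.67e-09). COL4A5, a collagen IV chain of the glomerular basement membrane, stood at 0.454, 0 and 2.17 CPM in shYAPTAZ, against 8.38, 6.75 and 9.04 CPM in parental (log2 -2.98, adjusted p = 0.00296). Without shYAPTAZ replicate 3 its log2 change was -5.17 (adjusted p = 0.000388).

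Of 34 further interstitial genes 14 were tested, and 1 rose and 2 fell in shHIF2A, 1 rose and 1 fell in shJUNs, and 5 rose and 3 fell in shYAPTAZ. The shares of 7.14% and 14.3% in shHIF2A and of 7.14% each way in shJUNs rest on 1 or 2 genes each. Beside them stand 9.84% and 8.8%, and 10.3% and 8.93%, of all tested genes. In shYAPTAZ the shares were 35.7% and 21.4%, beside 13.0% and 12.3%. POSTN, periostin, which lies on chromosome 13, had 20.4, 36.6 and 25.1 CPM in shYAPTAZ and no count in parental, which makes it at least 92.3-fold higher against a floor of 3 counts over the parental group (adjusted p = 1.79e-06). CCN2, a matricellular protein and known YAP target, stood at 106, 107 and 136 CPM in shHIF2A, at 53.6, 69.7 and 149 CPM in shYAPTAZ and at 22.7, 30.6 and 54.3 CPM in parental, and rose in both (log2 1.69 and 1.35, adjusted p = 0.00249 and 0.00769), with 1 shYAPTAZ library below the highest parental one. ECM1 fell in shYAPTAZ (log2 -1.51, adjusted p = 0.00176). LUM, lumican, stood at 0, 1.27 and 0 CPM in shYAPTAZ, against 11.9, 6.47 and 2.54 CPM in parental (log2 -3.90, adjusted p = 0.00227). Its log2 change was -3.30 without parental replicate 1, -7.60 without shYAPTAZ replicate 2 and -3.20 without shYAPTAZ replicate 3.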

How the data were processed

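The authors deposited a table of raw counts per gene, made with Trim Galore and STAR on hg38 per the submitters' processing notes. The sources used here do not give the counting program, its use of strand, the annotation release, tool versions or any collapsing of molecular identifiers. Besides LAMA5 and EFEMP2, members whose exons overlap a counted gene on the opposite strand include COL18A1, LAMB1 and PLOD3. Over all libraries SLC19A1 had 1302 counts beside 9721 of COL18A1, DLD 4438 beside 7720 of LAMB1, and ZNHIT1 5798 beside 3936 of PLOD3. Columns for gene position and length stand beside the counts, per the file headers. Of 62705 lines, 3 broken lines of 1 gene were left out.

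For the tests, edgeR 4.0.16 (R 4.3.3) was run with filterByExpr, TMM scaling and a single robust quasi-likelihood fit of 4 group means over 12 libraries, which covered 12301 genes. Adjusted p-values are Benjamini-Hochberg over all of them, called under 0.05. The same steps were tested on simulated data. Alternatives were DESeq2 1.42.0, limma-voom (limma 3.58.1), RLE scaling, library totals alone, no filter, a mean of at least 10 CPM, the 6 libraries compared alone, a replicate block, and leaving out each library. Differences between replicates exceeded counting error (chi-squared per degree of freedom 4.91 to 20.2), and each library was counted as 1 sample. Intervals are 95% exact (Clopper-Pearson), and floors are 3 counts over a group. Both cover counting error only.

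The 51 members and all lists were chosen with earlier results of these data known. All members may be named, and of each further list the 4 genes with the smallest adjusted p against parental. The levels of CCN1 were added outside that rule, beside those of CCN2. Promoters are RefSeq, GRCh38.p14, matched by symbol: 39 of 51 members had an entry.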

Additional observations from a re-analysis of the deposited data

Results flagged for a closer look

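COL4A2 moved in opposite directions in the knockdowns, and the difference itself passed the edgeR test. Its effect in shYAPTAZ minus that in shHIF2A was -1.46 on the log2 scale (SE 0.17, adjusted p = 2.72e-06), and its effect in shYAPTAZ minus that in shJUNs was -1.63 (SE 0.17, adjusted p = 8.48e-07). All 3 shYAPTAZ libraries lay below the parental ones and all 3 libraries of each of the others above them. The other tested genes of chromosome 13 had a median difference of -0.53 between shYAPTAZ and shHIF2A and of -0.47 between shYAPTAZ and shJUNs. Relative to these medians COL4A2 lay at -0.93 and -1.16. What part the chromosome's shift had in the difference was not tested.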

How the results depend on the processing

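Of the 119 calls of a member or a named matrix gene in a comparison, none changed direction under any alternative. DESeq2 and RLE scaling kept all 119, library totals alone 118, no filter 116 and limma-voom 108. The fit of the 6 libraries compared alone kept 111 of 116, and the filter at a mean of 10 CPM all 106 it left. Leaving out 1 library ended between 3 calls (shYAPTAZ replicate 3) and 16 (parental replicate 1). The replicate block kept all 119. The labels do not say that a number pairs libraries, and the same-numbered correlations of deviations lay between -0.010 and 0.22. In 26 of 36 cases a library correlated best, among the 3 libraries of the other group, with its own number. The main fit has no term for the number. The 13 counts of called members stayed within 1.5 times their value in most settings. The count lower in shHIF2A than in parental, 8, was 5 under limma-voom and 1 to 8 without single libraries. The count lower in shJUNs than in parental, 5, was 1 to 5 without single libraries. The count lower in shJUNs than in shHIF2A, 2, was 4 under DESeq2, limma-voom and the replicate block, 5 in the fit of 6 libraries and 2 to 4 without single libraries. The count higher in shJUNs than in shHIF2A, 6, was 12 in the fit of 6 libraries. The count higher in shYAPTAZ than in shJUNs, 11, was 7 to 14 without single libraries. The causes were not tested. With 3 libraries a group, exact tests of a ratio cannot pass, and 10 members had too few counts to test.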

Other observations

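The share of all counts taken by the 51 members was highest in the library numbered 1 and lowest in the library numbered 3 in each of the 4 groups: 1.27%, 1.16% and 0.979% in shHIF2A, 1.04%, 1.00% and 0.937% in shJUNs, 1.30%, 1.12% and 0.961% in shYAPTAZ, and 1.08%, 0.996% and 0.960% in parental. Mitochondrial genes took 9.37%, 8.49% and 7.20% of the counts in shHIF2A, 7.44%, 7.25% and 6.33% in shJUNs, 8.40%, 7.79% and 6.54% in shYAPTAZ, and 7.64%, 7.29% and 6.91% in parental. The numbers come from the labels, which do not say what they stand for.

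The ratio of LAMB1 to LAMC1 counts, chains of the same laminins, averaged 1.10 ± 0.0979 in shYAPTAZ and 1.69 ± 0.227 in parental (SD, n = 3 each), without overlap (two-sided exact permutation p = 0.1, the smallest possible, adjusted p = 0.125). Neither gene passed by itself in a comparison of 2 groups, and LAMC1 passed the edgeR test among the 4 groups (adjusted p = 0.047). The ratio of COL6A1 to COL6A2 counts averaged 2.18 ± 0.126 in shJUNs, 2.24 ± 0.310 in shYAPTAZ and 1.34 ± 0.347 in parental, again without overlap of either knockdown with parental (exact permutation p = 0.1 each, adjusted p = 0.125).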
